A study of Rattus norvegicus with 6 samples.

Results

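Fibronectin, the elastic fibre proteins and 3 secreted matrix proteins that act around them are the subject here. The set holds 10 genes chosen by name, Eln, Fbn1, Fbln5, Fbln1, Lox, Loxl1, Fn1, Sparc, Postn and Tgfbi, of 32623 genes in the table. All 10 were found, with 17 transcripts between them of 40808, and all 10 passed the filter of a mean of at least 0.5 FPKM (fragments per kilobase of feature, scaled to library size) that left 15750 genes. The libraries are poly(A) RNA from spinal cord of female Wistar rats, 8 weeks of age, with a modelled spinal cord injury. Rats given electrical stimulation (ES) gave 3 libraries and injured rats without stimulation (SCI) gave the other 3, so that both groups share the injury. The labels give neither the segment, kind and age of the injury nor the settings of the stimulation, and do not say that each library is 1 rat. The p-values therefore rest on variation among 3 libraries a group, part or all of which may be technical.

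Elastic fibres are cores of cross-linked elastin laid down on a scaffold of fibrillin microfibrils. Fibulins bring elastin to the scaffold, and the enzymes of the lysyl oxidase family cross-link it. Fibronectin is a dimer that cells stretch into fibrils through integrins, and these fibrils serve as a first template for collagen and microfibrils. In injured cord this matrix is made largely by fibroblasts of the meninges and vessels and by vessel wall cells, and it forms part of the fibrous scar.

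As background to what follows, RefSeq promoter windows of assembly GRCr8 were at hand for 6 of the 10 genes, Sparc, Postn, Tgfbi, Fbn1, Fbln5 and Loxl1. The 250 bases before the start are printed for Loxl1 and Sparc, both lower in ES and both with the annotated gene edge at the window's start site. For Postn, the gene that rose, 30 bases around a TATAAA match are printed. Capitals mark matches, on either strand, to the motifs searched. The motifs were TATAAA for the TATA box, CCAAT for the CCAAT box, GGGCGG for the GC box of Sp1, TGANTCA for AP-1, GGAATG for TEAD factors and CAGACA for Smad proteins.
Loxl1, chr8:67612225-67612474, minus strand: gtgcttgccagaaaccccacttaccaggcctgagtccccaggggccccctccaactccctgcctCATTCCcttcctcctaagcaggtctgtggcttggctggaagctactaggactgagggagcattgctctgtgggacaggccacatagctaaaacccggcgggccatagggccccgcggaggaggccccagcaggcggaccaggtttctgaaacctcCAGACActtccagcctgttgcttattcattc
Sparc, chr10:40038817-40039066, minus strand: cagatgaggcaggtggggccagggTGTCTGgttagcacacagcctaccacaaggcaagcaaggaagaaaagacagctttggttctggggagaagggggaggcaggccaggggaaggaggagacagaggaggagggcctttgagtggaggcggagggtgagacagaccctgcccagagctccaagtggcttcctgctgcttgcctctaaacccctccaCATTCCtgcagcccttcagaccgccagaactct
Postn, chr2:140678005-140678034, plus strand: agcccagagctcTATAAAttcagctctcta
Loxl1 and Sparc each held 1 match to GGAATG and 1 to CAGACA. These motifs were found in 12.1% and 17.2% of the same window of 33469 rat promoters. TATAAA stood in 12.9% of them and, among the 6 genes, in Postn alone, 44 bases before the window's start site, which for Postn lies 287 bases inside the annotated gene. Fbn1 held CAGACA once, and Tgfbi and Fbln5 held GGGCGG, which 30.5% of promoters have. No match to CCAAT (34%) or TGANTCA (6.34%) was found in the 6 windows. The window's start site also lies inside the annotated gene for Tgfbi (by 121 bases), Fbln5 (141) and Fbn1 (887). A match is a description of letters and not a mapped binding site.

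Among the 10, Eln, Fbn1, Fbln5, Lox and Loxl1, which make, anchor and cross-link elastin, were lower in ES by 1.44 to 2.73 times. Fbln1 was close between the groups, Tgfbi did not pass the test and Postn rose. The test was limma on log2(FPKM + 1) over all 15750 genes, with Benjamini-Hochberg adjusted p under 0.05 as a call, and log2 fold changes below are ES minus SCI on that scale. In it 8 of the 10 genes were lower in ES, 1 was higher and 1 was not called. Over all genes tested 45% were called, 17.4% higher and 27.6% lower. Every ES library lay below every SCI library for the same 8 genes, beside 34.6% of all genes, and above for Postn, beside 21.9%. The median log2 fold change of the 10 genes was -0.59, against -0.06 over all genes tested. The middle 50% of all genes lay between -0.27 and 0.13 and the middle 90% between -0.73 and 0.52.

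**Figure D1:**
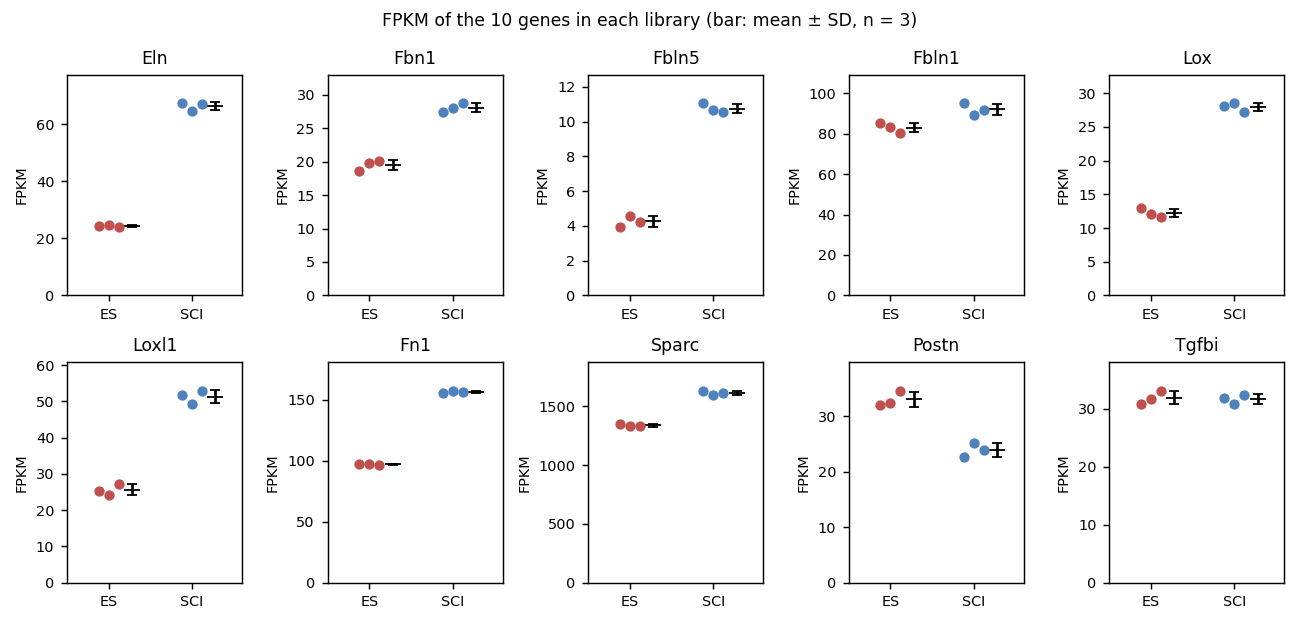
FPKM (vertical axis, from 0) of the 10 genes in the 3 ES and the 3 SCI libraries. Points are libraries and the bar beside them is the mean with its SD (n = 3). The ES points lie below the SCI points in 8 panels, above them for Postn and among them for Tgfbi.

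Eln encodes tropoelastin, the monomer of the elastic core (ENSRNOG00000001469, chromosome 12, 24978483 to 25021863 in the files' coordinates). Its level was 24.5 FPKM in ES replicate 1, 24.6 in ES replicate 2 and 24.1 in ES replicate 3, against 67.4, 64.8 and 67.2 FPKM in the SCI libraries, in the same order of replicates as all values below. The groups were far apart, and the ES libraries differed among themselves by less than 1 FPKM. The means were 24.4 ± 0.265 FPKM in ES and 66.5 ± 1.45 in SCI (SD, n = 3 each), which is 2.73-fold lower in ES (log2 fold change -1.41 ± 0.03 SE, adjusted p = 7.39e-07 by limma). Counting from the largest decrease, Eln was number 95 of the 15750 genes. With 1220 to 1390 read pairs estimated behind each ES value, counting alone gives a coefficient of variation of at most 2.86%. The ES libraries spread by less than counting alone would give, so no variation between animals is visible in these values. The small adjusted p rests on that spread.

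Fbn1, fibrillin 1, the main microfibril protein (ENSRNOG00000007302, chromosome 3, 117569697 to 117766120), fell less. It had 18.7, 19.7 and 20.1 FPKM in ES, against 27.4, 28.1 and 28.7 FPKM in SCI. Its groups did not overlap, and the mean was 1.44-fold lower in ES (log2 fold change -0.50 ± 0.04, adjusted p = 0.000136 by limma). The core and its scaffold thus fell by unequal amounts. The ratio of Eln to Fbn1 within a library was 1.31, 1.25 and 1.20 in ES, against 2.46, 2.31 and 2.34 in SCI. The exact two-sided permutation test of this ratio gave p = 0.1, the smallest that 3 libraries against 3 allow, and 8 such ratios were computed, chosen after the values were seen, each with p = 0.1 before and after adjustment over the 8.

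Fbln5, fibulin 5, binds elastin to microfibrils and to cell surface integrins (ENSRNOG00000050539, chromosome 6, 125644804 to 125723944). It was the lowest of the 10 genes in both groups, with 3.95, 4.60 and 4.23 FPKM in ES and 11.1, 10.7 and 10.5 FPKM in SCI. The mean was 2.53-fold lower in ES, with no overlap (log2 fold change -1.16 ± 0.06, adjusted p = 2.47e-05 by limma). Only 137 to 173 read pairs were estimated behind its ES values, so counting error there reaches 8.55%.

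Fbln1, fibulin 1, is another elastin- and fibronectin-binding fibulin (ENSRNOG00000014137, chromosome 7, 126096793 to 126176468). Its levels were 85.2, 83.2 and 80.5 FPKM in ES, against 94.95, 89.2 and 91.7 FPKM in SCI. The groups lay close without overlapping, 1.11-fold lower in ES (log2 fold change -0.15 ± 0.03, adjusted p = 0.0134 by limma), and after median centring the call was lost (log2 fold change -0.05, adjusted p = 0.243). In the authors' deposited table Fbln1 had a p-value of 0.27. The ratio of Fbln5 to Fbln1 was 0.0464, 0.0553 and 0.0526 in ES, against 0.116, 0.1199 and 0.115 in SCI, lower in every ES library than in any SCI library.

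Lox and Loxl1 encode lysyl oxidase and lysyl oxidase like 1, which oxidize lysines of collagen and elastin so that these cross-link. Lox (ENSRNOG00000014426, chromosome 18, 47500330 to 47577819) had 12.96, 12.1 and 11.7 FPKM in ES, against 28.04, 28.5 and 27.3 FPKM in SCI. Loxl1 (ENSRNOG00000008680, chromosome 8, 63067300 to 63092009) had 25.4, 24.3 and 27.3 FPKM in ES, against 51.7, 49.3 and 53.0 FPKM in SCI. Both were about halved with no overlap. Lox was 2.28-fold lower (log2 fold change -1.13 ± 0.05, adjusted p = 9.35e-06) and Loxl1 2.00-fold lower (-0.97 ± 0.05, adjusted p = 2.26e-05, both by limma). Of the 10 genes, Eln, Fbln5 and Lox were called with a mean at least 2 times lower in ES, which held for 4.51% of all genes tested.

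The proportion of the 2 enzymes differed little. The ratio of Lox to Loxl1 was 0.510, 0.496 and 0.429 in ES and 0.542, 0.579 and 0.515 in SCI, 0.479 ± 0.0432 against 0.545 ± 0.0321 (SD, n = 3 each), with the highest ES value just under the lowest SCI value. Relative to their substrate, Lox per Eln was higher in ES, 0.530, 0.492 and 0.486 against 0.416, 0.440 and 0.406 in SCI.

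**Figure D2:**
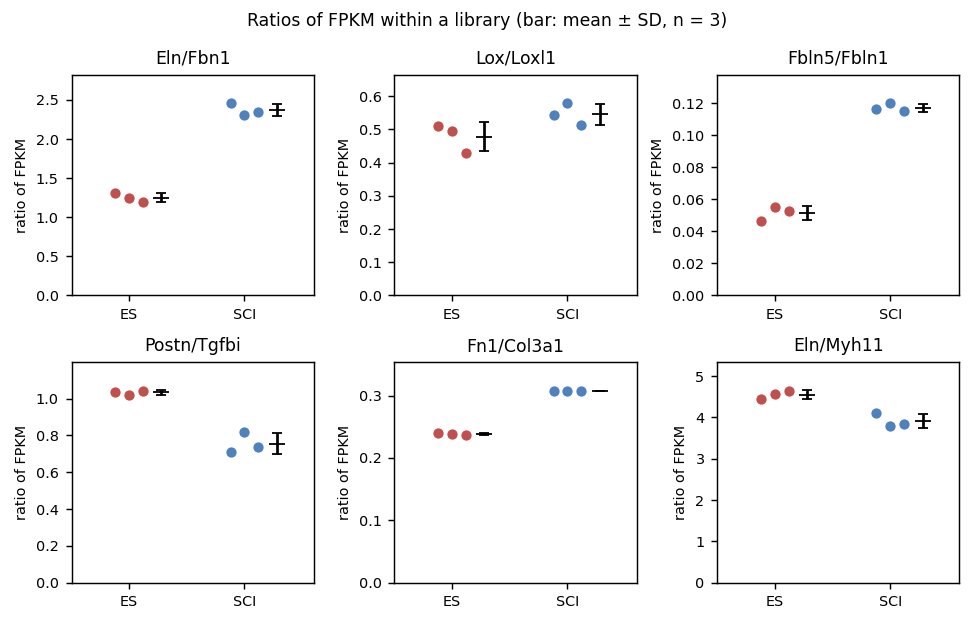
Ratio of the FPKM of 2 genes within each library (vertical axes from 0), with points for libraries and the mean and SD (n = 3) beside them. Eln/Fbn1 is 1.25 in ES and 2.37 in SCI on average, while Lox/Loxl1 and Eln/Myh11 lie close between the groups.

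Fn1, fibronectin (ENSRNOG00000014288, chromosome 9, 78900103 to 78969078), had 97.5, 97.5 and 96.8 FPKM in ES, against 155, 158 and 157 FPKM in SCI. The libraries of a group lay within 3 FPKM of each other, far closer than the groups did. In ES the SD was 0.359 FPKM on a mean of 97.3, again less than the estimated counting error, which reaches 0.935%. Fn1 was 1.61-fold lower in ES (log2 fold change -0.68 ± 0.02, adjusted p = 3.27e-06 by limma). Set against Col3a1, the fibrillar collagen laid down with it, Fn1 stood at 0.239, 0.238 and 0.237 of the Col3a1 level in ES and at 0.307, 0.307 and 0.308 in SCI. This ratio was lower in each ES library than in any SCI library.

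Sparc encodes a secreted collagen-binding protein that many stromal cells, endothelial cells and glia make (ENSRNOG00000012840, chromosome 10, 40742400 to 40764185). It was by far the most abundant of the 10, with 1350, 1334 and 1329 FPKM in ES against 1633, 1595 and 1609 FPKM in SCI, and ranked between 36 and 41 among all genes of a library. The mean was 1.21-fold lower in ES, with no overlap (log2 fold change -0.27 ± 0.02, adjusted p = 8.87e-05 by limma). Sparc made up 80.0% to 80.3% of the summed FPKM of the 10 genes in ES and 76.6% to 76.9% in SCI, so the sum mostly reads Sparc. Without it the sum was 330 to 332 FPKM in ES, against 484 to 491 FPKM in SCI.

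Postn and Tgfbi encode periostin and TGF-beta-induced protein, 2 related secreted proteins built of fasciclin domains that bind collagen and integrins. Postn (ENSRNOG00000012660, chromosome 2, 143656793 to 143688087) had 32.1, 32.4 and 34.6 FPKM in ES, against 22.7, 25.2 and 23.9 FPKM in SCI. It was the only one of the 10 genes that rose, 1.38-fold with no overlap (log2 fold change 0.45 ± 0.05, adjusted p = 0.000577 by limma). Tgfbi (ENSRNOG00000012216, chromosome 17, 8400146 to 8429338) had 30.9, 31.8 and 33.2 FPKM in ES, against 31.9, 30.8 and 32.4 FPKM in SCI. Its libraries overlapped (log2 fold change 0.01 ± 0.04, adjusted p = 0.843 by limma), it was not called under any of the 14 alternatives, and its sign turned after rescaling to equal totals (log2 fold change -0.06), without ES replicate 3 (-0.015) and without SCI replicate 2 (-0.0090). The ratio of Postn to Tgfbi was 1.04, 1.02 and 1.04 in ES and 0.710, 0.818 and 0.737 in SCI, and that of Postn to Fn1 was 0.329, 0.333 and 0.357 in ES and 0.146, 0.160 and 0.152 in SCI.

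**Figure D3:**
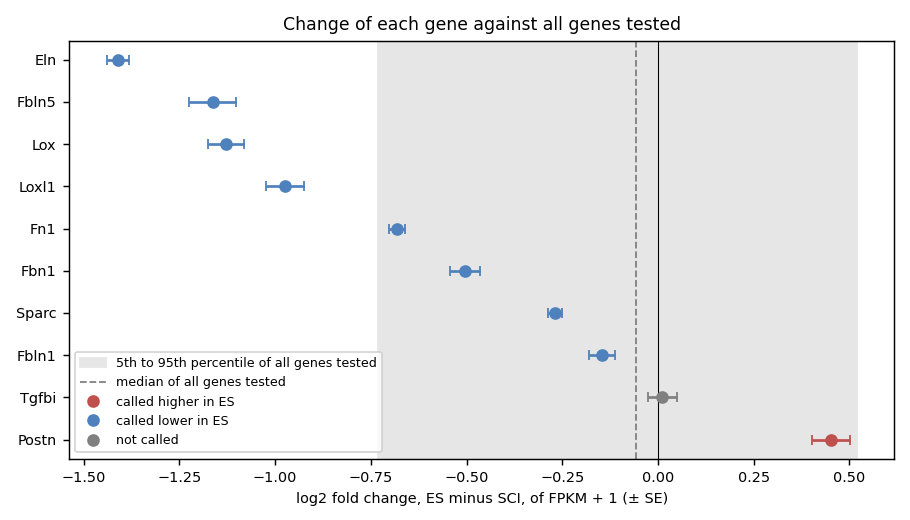
Log2 fold change (ES minus SCI, of FPKM + 1) with its SE for the 10 genes, over the 5th to 95th percentile of all 15750 genes tested (grey band, -0.73 to 0.52). Eln, Fbln5, Lox and Loxl1 lie left of the band, and Postn lies inside it on the right.

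In order of level, Sparc, Fn1 and Fbln1 came first in both groups, and Fbln5 last. Below Fbln1 the order in ES was Postn, Tgfbi, Loxl1, Eln, Fbn1 and Lox, and in SCI it was Eln, Loxl1, Tgfbi, Fbn1, Lox and Postn. Eln thus held the position 7 in ES and 4 in SCI, and Postn 4 in ES and 9 in SCI. Neighbours whose libraries overlapped were Postn and Tgfbi, and Loxl1 and Eln, in ES, and Fbn1 and Lox in SCI. In the authors' deposited table Eln, Fbln5 and Lox were marked as significant. Loxl1 was not, with a q-value of 1.08e-23 and a log2 fold of -0.9996. The 1026 marked genes were those whose log2 fold reached 1 in size at a p-value below 0.05, a limit that Loxl1 missed narrowly.

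At the level of transcripts, both forms of Fn1 fell, and the shorter one fell by more. The form of 46 exons and 8331 bases (ENSRNOT00000019772) had 87.8, 86.1 and 86.3 FPKM in ES, against 134, 135 and 131 FPKM in SCI (log2 fold change -0.61 ± 0.02, adjusted p = 3.13e-05). The form of 45 exons and 8136 bases (ENSRNOT00000057585) had 10.8, 12.5 and 11.7 FPKM in ES, against 23.0, 25.02 and 27.7 FPKM in SCI (log2 fold change -1.05 ± 0.08, adjusted p = 0.000521, both by limma over 19223 transcripts, of which 32.3% were called, 12.8% higher and 19.5% lower). The shorter form made up 10.95%, 12.7% and 11.9% of Fn1 in ES and 14.6%, 15.7% and 17.4% in SCI, with no overlap. In the transcript usage test (diffSplice of limma with Simes p-values, 2589 genes, 13.3% called) Fn1 passed with adjusted p = 0.0163. The call was lost without ES replicate 1 (adjusted p = 0.0654), ES replicate 3 (0.0583) or SCI replicate 2 (0.0529), and after quantile normalization (0.0597).

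Both Eln transcripts fell by like amounts. The form of 34 exons (ENSRNOT00000032780) had 24.1, 24.4 and 23.5 FPKM in ES and 65.4, 62.9 and 65.6 FPKM in SCI, and the form of 37 exons (ENSRNOT00000040069) 2.27, 2.01 and 2.54 FPKM in ES and 7.55, 7.18 and 6.98 FPKM in SCI. The first held 90.2% to 92.4% of Eln in ES and 89.6% to 90.4% in SCI, and usage did not pass (adjusted p = 0.673 by diffSplice of limma). For Lox 1 transcript of 3, of 4520 bases, carried at least 99.9% of the level in every library, and another was listed at 0 in all 6. Sparc, Tgfbi, Fbn1 and Loxl1 have 1 transcript each in the table. Fn1, Fbn1 and Lox overlap genes on the opposite strand, Lox among them Zfp474, and all of these lay below the filter.

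For the 2 fibulins the shares of the forms overlapped between the groups. For Fbln1 the form of 15 exons (ENSRNOT00000088042) had 80.1, 80.2 and 74.2 FPKM in ES and 90.8, 84.8 and 90.1 FPKM in SCI (log2 fold change -0.18, adjusted p = 0.0281 by limma). This call was lost without any 1 library except SCI replicate 2 (adjusted p from 0.0512 to 0.0855) and under 3 other settings. The form of 17 exons (ENSRNOT00000047234) stood at 34.6, 32.2 and 33.8 FPKM in ES and at 37.3, 35.5 and 34.1 FPKM in SCI, with overlap (adjusted p = 0.215 by limma), and Fbln1 usage did not pass (adjusted p = 0.434). For Fbln5 both forms have 11 exons. The longer one, of 2356 bases, took 75.7%, 79.3% and 77.0% of Fbln5 in ES and 83.0%, 78.3% and 82.6% in SCI, which overlap. The usage test called Fbln5 (adjusted p = 0.0075 by diffSplice of limma) but not with a pseudocount of 0.1 (adjusted p = 0.108), and a pseudocount of 1 compresses the change of its shorter form, which lies at 1.12 FPKM in ES and 2.31 in SCI.

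Postn showed a different picture, in which the gene level was steady and its 2 transcripts were not. The form of 21 exons (ENSRNOT00000084527) had 31.4, 24.7 and 12.1 FPKM in ES and 18.3, 21.1 and 0.911 FPKM in SCI. The form of 22 exons (ENSRNOT00000017453) had 1.53, 8.53 and 23.2 FPKM in ES and 4.89, 4.70 and 23.4 FPKM in SCI. The forms differ by 1 exon and 31 bases in annotated length, and 1 took the place of the other in replicate 3 of both groups, while their sum stayed between 32.9 and 35.3 FPKM in ES and between 23.2 and 25.8 FPKM in SCI. Neither form was called (adjusted p = 0.406 and 0.924 by limma), so a rise was called for the gene and for neither form.

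**Figure D4:**
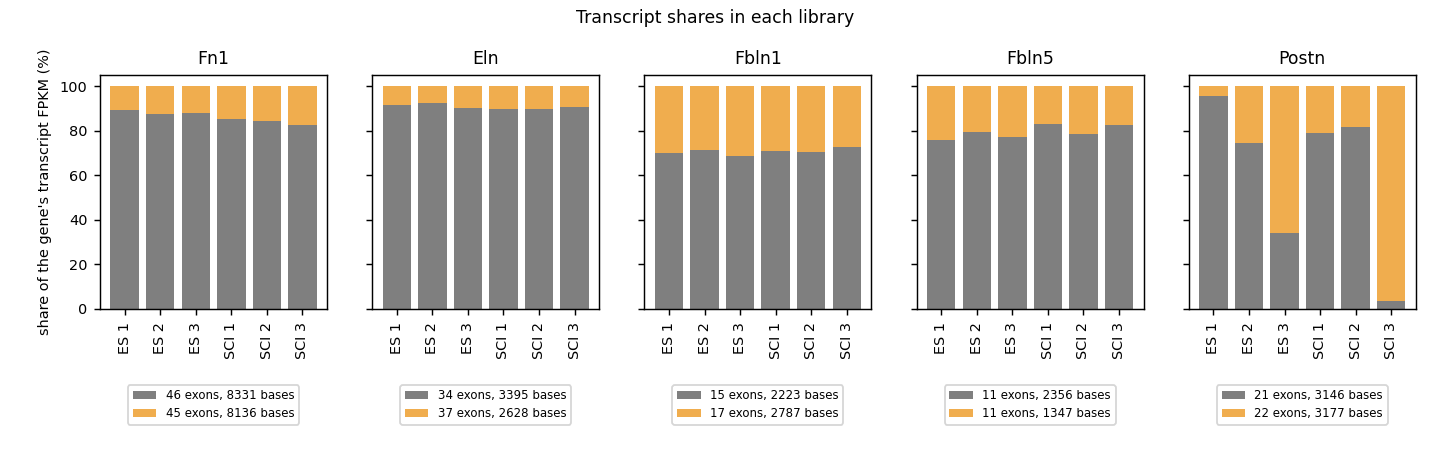
Share of each transcript in its gene's summed transcript FPKM (vertical axis, percent), in the 3 ES and the 3 SCI libraries, for the 5 genes with 2 transcripts past the filter. The minor Fn1 form is smaller in each ES library than in any SCI library, and the Postn forms change places in ES replicate 3 and SCI replicate 3.

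Most further matrix genes tested were also lower in ES. The counts of this and the following lists stand beside 27.6% of all genes tested called lower and 17.4% called higher. Of 20 further elastic fibre genes 19 were tested, of which 14 fell, 2 rose and 3 did not pass, with a median log2 fold change of -0.40 against -0.06 over all genes. Efemp1, fibulin 3, fell to 23.9 ± 0.445 FPKM in ES, against 70.9 ± 1.27 in SCI (log2 fold change -1.53, adjusted p = 6.83e-07 by limma). Mfap5, a microfibril protein, was at 13.7 ± 0.286 FPKM in ES and 27.9 ± 2.02 in SCI, and Adamtsl4, which binds fibrillin, at 6.56 ± 0.313 in ES and 11.02 ± 0.169 in SCI. The fibulin gene Fbln2 went the other way, with 29.2, 29.0 and 28.7 FPKM in ES and 11.9, 12.5 and 12.7 FPKM in SCI, 2.34-fold higher in ES (log2 fold change 1.17, adjusted p = 4.12e-06 by limma).

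Some members of that list were looked at after their values were seen. Emilin2, an elastin microfibril interface protein, also rose, with 8.55 ± 0.235 FPKM in ES against 6.20 ± 0.272 in SCI. Bmp1, the protease that activates lysyl oxidase, was not called, at 51.2 ± 1.21 FPKM in ES and 51.3 ± 2.74 in SCI (adjusted p = 0.964 by limma). Mfap4 was listed at 0 in ES replicate 3 and at 20.9 and 20.0 FPKM in ES replicates 1 and 2, against 56.2, 52.6 and 56.3 FPKM in SCI, and did not pass (adjusted p = 0.0874 by limma).

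Of 16 genes of fibronectin receptors and partners 10 fell, 1 rose and 5 did not pass (median -0.21). The syndecan genes Sdc2 and Sdc4, cell surface proteoglycans that bind fibronectin, fell to 20.9 ± 0.354 and 26.0 ± 0.627 FPKM in ES, against 51.8 ± 0.704 and 49.0 ± 1.79 in SCI. Vtn, vitronectin, was at 21.6 ± 1.38 FPKM in ES and 53.9 ± 1.605 in SCI, and Thbs1, thrombospondin 1, at 6.66 ± 0.308 in ES and 50.8 ± 0.593 in SCI. Neither chain of the main fibronectin receptor was called lower. Itga5 stood at 9.90 ± 0.310 FPKM in ES and 10.6 ± 0.412 in SCI (adjusted p = 0.157), and Itgb1 at 120 ± 1.57 FPKM in ES and 106 ± 4.05 in SCI (adjusted p = 0.00509, both by limma and both named after their values were seen).

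Of 11 matricellular genes related to Sparc or acting like it, 7 fell and 4 rose (median -0.19). Sparcl1, the closest relative of Sparc and an astrocyte product, was at 595 ± 3.12 FPKM in ES and 878 ± 10.6 in SCI, and Fstl1 and Smoc1, of the same family, at 53.4 ± 1.58 and 6.05 ± 0.607 in ES against 108 ± 2.23 and 18.5 ± 1.63 in SCI. Spp1, osteopontin, made in quantity by phagocytes, rose to 2308 ± 21.0 FPKM in ES, against 740 ± 11.3 in SCI. All 8 of the collagen genes tested fell (median -0.32), among them Col12a1, at 8.57 ± 0.333 FPKM in ES and 19.5 ± 0.953 in SCI. The others fell less, with Col3a1 at 408 ± 1.18 FPKM in ES and 509 ± 3.34 in SCI, Col6a1 at 110 ± 2.46 in ES and 137 ± 2.46 in SCI, and Col5a2 at 44.7 ± 0.779 in ES and 54.6 ± 0.67 in SCI.

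TGF-beta is the growth factor best known for inducing Fn1, Eln, Lox, Postn and Tgfbi in fibroblasts. Of 12 genes of its ligands, receptors and response 7 fell, 4 rose and 1 did not pass (median -0.19). The response gene Ccn2 fell to 27.5 ± 1.03 FPKM in ES, against 45.7 ± 1.21 in SCI. The receptor genes were divided. Tgfbr1 rose to 54.6 ± 0.897 FPKM in ES, against 39.2 ± 1.32 in SCI, and Tgfbr3 fell to 13.1 ± 0.512 in ES, against 21.2 ± 0.667 in SCI.

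**Figure D5:**
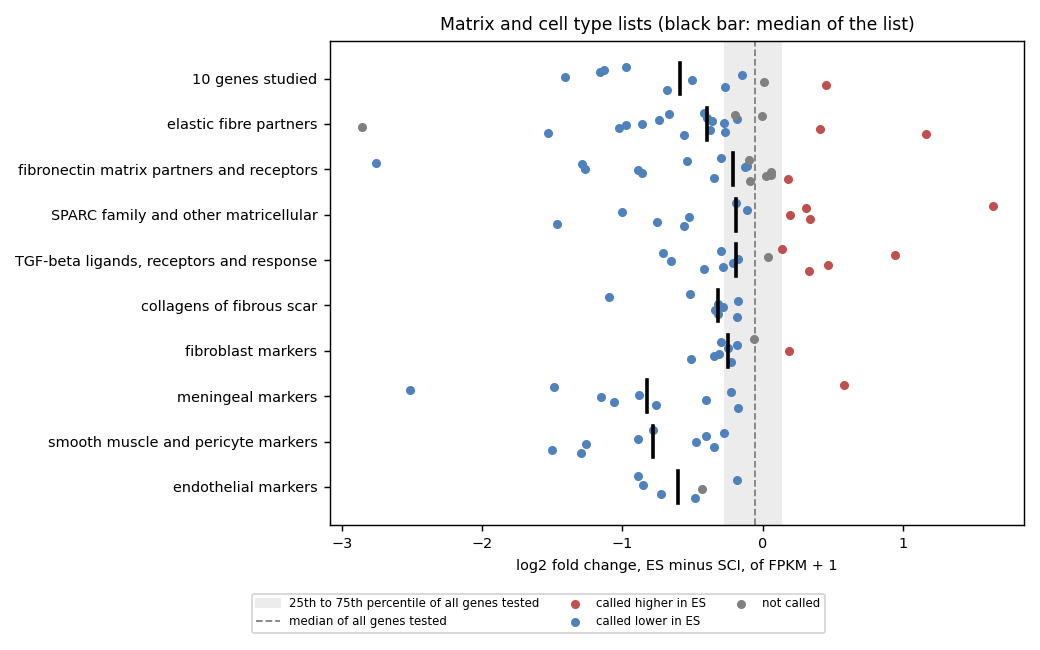
Log2 fold change (ES minus SCI, of FPKM + 1) of each tested gene in 10 lists, with the list's median as a black bar, over the middle 50% of all genes tested (grey band). The medians of the 10 genes studied and of the elastic fibre, collagen, meningeal, smooth muscle and endothelial lists lie left of the band.

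The libraries carried the neuron and glia genes of spinal cord, with Snap25 at 41.8 to 44.0 FPKM in ES and 30.1 to 33.7 in SCI. In bulk RNA, fewer cells of a type and less RNA per cell cannot be told apart, and the marker lists of the cells that make this matrix moved with the genes above. Over all genes tested, 27.6% were called lower and 17.4% higher. Of 9 smooth muscle and pericyte markers all fell, and their summed level was 132 to 135 FPKM in ES, against 217 to 226 in SCI. Of 10 meningeal markers 9 fell and 1 rose, with sums of 2442 to 2482 FPKM in ES and 5216 to 5332 in SCI. That sum mostly reads Ptgds, at 1543 ± 17.8 FPKM in ES and 4328 ± 51.7 in SCI, and Cldn11, the marker that rose, at 702 ± 9.33 FPKM in ES and 470.2 ± 4.45 in SCI. Of 9 fibroblast markers tested 7 fell and 1 rose, with sums of 673 to 684 FPKM in ES and 800 to 817 in SCI. Of 6 endothelial markers tested 5 fell (67.1 to 68.5 FPKM in ES, 101 to 109 in SCI). Among 8 macrophage markers 6 rose and none was called lower (3418 to 3487 FPKM in ES, 2588 to 2643 in SCI). Of 7 Schwann cell markers tested 6 fell, and Mbp, which stands in the glia list too, rose. All 5 erythrocyte markers tested rose (2973 to 3188 FPKM in ES, 519 to 546 in SCI). Of 8 neuron markers 7 rose and none was called lower, and of 8 glia markers 5 rose, Mbp among them, and 3 fell. None of the tested markers in the first 4 lists was at 0 in any library. The part of cell numbers in the results was not tested.

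The markers of a list moved by unequal amounts. The smooth muscle genes Acta2 and Myh11 were at 13.4 ± 1.65 and 5.36 ± 0.171 FPKM in ES, against 34.3 ± 0.576 and 17.0 ± 0.542 in SCI, which are larger falls (log2 fold change -1.29 and -1.50) than the list's median of -0.78. Tagln, of the same list, was at 68.1 ± 1.08 FPKM in ES and 87.1 ± 6.90 in SCI (log2 fold change -0.35). The fibroblast genes Pdgfrb and Dcn were at 8.91 ± 0.483 and 214 ± 1.68 FPKM in ES, against 13.1 ± 0.527 and 273 ± 8.78 in SCI. The ratio of Eln to Myh11 was 4.43, 4.56 and 4.65 in ES and 4.10, 3.78 and 3.84 in SCI, higher in every ES library than in any SCI library.

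The libraries correlated on log2(FPKM + 1) at 0.993 to 0.994 within groups and at 0.984 to 0.985 across groups, and the depth was estimated at 13900000 to 16100000 read pairs in ES and 16300000 to 18600000 in SCI. Of the 7088 genes called, 2747 were higher and 4341 lower. With quantile normalization 3414 were higher in ES and 3257 lower. Centring on the median gave 4021 higher and 2975 lower, and setting all totals equal gave 2070 higher and 5584 lower, while the 5 matrix lists kept a negative median under these 3 scalings. Over the 6 libraries the genes most like Fn1 by Pearson's r were Ccnd2, Mprip, Slco1c1, Scd2 and the unnamed locus AABR07001382, each with an r of 1.00 after rounding. The 6 points form 2 groups, so that r mainly reads the difference between them, and 548 of 10001 genes with a mean of at least 5 FPKM had an r over 0.99. Eln was number 44 in that order, Lox 152, Fbln5 300, Sparc 308 and Loxl1 452, with Fbn1 at 553 and Fbln1 at 2298. Tgfbi, at 5788 (r = -0.16), and Postn, at 9175 (r = -0.97), had a negative r with Fn1.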

How the data were processed

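The files deposited by the authors hold FPKM for every gene and transcript in each of 6 libraries, and entries of 0.0001 were read as 0. The submitters' processing notes name HISAT and StringTie without version or role, and no source used here names the genome build. Per the labels' protocols, poly(A) RNA from 1 ug of total RNA was made into stranded libraries, sequenced from both ends, with an insert size of about 300 bp. The authors' fold column is the ratio of mean FPKM in ES over SCI, with its log2 beside it, and the authors' p-values and q-values come from a test not named in any source used here. For the 10 genes the deposited gene FPKM is the summed transcript FPKM times transcript length, divided by 1 fixed length per gene (equal in all libraries to 1 base).

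Each column was assigned by the treatment and number in its name. The values are not counts, so features with a mean of at least 0.5 FPKM were tested two-sided on log2(FPKM + 1). The test was the moderated one of limma 3.58.1 (R 4.3.3), with prior variance trended on level and p-values adjusted over all features tested. This scale understates changes of low genes. Fold values are ratios of mean FPKM. Depth was estimated from the spacing of the lowest transcript values, taking 1 step as 1 read pair, and counting errors rest on that assumption and cover counting only. Ratios were tested with scipy 1.17.1. The tests were tried on simulated data first.

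The genes, lists and tests were chosen with earlier results of these data known. The named genes are the 10 genes, the 4 with the smallest p in each of 5 matrix lists, the 5 most like Fn1, and up to 3 markers per cell type list. Some genes that this rule names are not reported here. For Crabp2 the first of 2 rows was used. The pairing check gave correlations of deviations of same-numbered libraries from -0.0292 to -0.0261, so the numbers were not taken as pairs. Alternatives were a pseudocount of 0.1, no filter or one of 2 FPKM, quantile normalization, median centring, equal totals, no trend, a replicate block, and leaving out each of 6 libraries.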

Additional observations from a re-analysis of the deposited data

How the results depend on the processing

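Of the 10 genes, 9 were called under 13 of the 14 alternatives and 8 after median centring, where Fbln1 lost its call. No call reversed. With the replicate block, which the check of the numbers did not favour, 6317 genes were called in place of 7088, 4543 transcripts in place of 6213 and 285 genes in the usage test in place of 345, and 9 of the 10 genes kept their calls. Without a filter the usage test called 704 genes. The cause was not tested. Among the 65 tested genes of the 5 matrix lists 56 were called, beside 45% of all genes tested, and between 51 and 57 under the alternatives. The median of the fibronectin partner list was -0.32 with a filter of 2 FPKM, which leaves fewer genes. Median centring took it to -0.12, that of the matricellular list to -0.10 and that of the TGF-beta list to -0.10, against -0.21, -0.19 and -0.19, with the median of all genes at 0.03. Depth limits Fbln5 most, and the exact permutation test of each ratio cannot go below p = 0.1.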
